A study of Mus musculus with 6 samples.

Results

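The genes described here form the core of the NRF2 antioxidant response: the transcription factor gene Nfe2l2, its inhibitor gene Keap1 and 8 enzyme genes (Gclm, Gclc, Gsr, Txnrd1, Srxn1, Prdx1, Hmox1 and Nqo1). They were picked by symbol under a rule that uses no measured value, although earlier results of these data were known when the genes were chosen, and all 10 are among the 15982 genes of the authors' deposited table, each in 1 entry. RNA came from primary mouse bone marrow-derived macrophages of the Bub1 cKO genotype, in which the mitotic checkpoint kinase gene Bub1 is targeted in myeloid cells, and of the Ctrl genotype. Both genotypes were cultured alike: 3 days with the macrophage growth factor M-CSF (20 ng/ml), followed by 2 days in which RANKL (50 ng/ml), the cytokine that drives osteoclast formation, was added to the M-CSF (20 ng/ml). The labels give 3 libraries for Bub1 cKO and 3 for Ctrl and say nothing of separate animals or cultures behind them, so the p-values measure the spread between libraries, which may be technical. The strain, the age, the alleles of the Ctrl mice and the promoter behind the deletion are not stated in these sources.

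NRF2, the protein of Nfe2l2, is made continuously and destroyed continuously, because KEAP1 hands it to a CUL3 ubiquitin ligase. Oxidants and electrophiles modify cysteines of KEAP1, NRF2 then escapes, pairs with a small MAF protein and binds antioxidant response elements near its target genes. The pathway is therefore switched mainly at the level of protein, and the messenger RNA of its targets is a common readout. In osteoclast precursors reactive oxygen species act as signals downstream of RANKL, and mouse cells lacking NRF2 form osteoclasts more readily.

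The values, 1 per gene and genotype, were deposited without a unit and read as TPM, though CPM cannot be told apart from it by the sums. No SD over libraries can be given, and the depth of the libraries is unknown. In the bulk cultures fewer cells of a type and less RNA per cell cannot be told apart. The authors' deposited table gives 2 kinds of change. The deposited log2 change compares the expression values of both genotypes after adding 1. The tested log2 change is the authors' statistic times its standard error, and the intervals below are 95% intervals of it. A gene counts as called when the adjusted p of the authors' test is under 0.05.

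The antioxidant response element is commonly written TGACNNNGC, and the promoters of 7 of the 10 genes could be read from RefSeq (GRCm38.p6) in windows from 250 bases before to 50 bases after a start site. The element's letters occur on either strand in a window of 5 of these genes (Gclm, Prdx1, Txnrd1, Srxn1 and Nfe2l2) and in none of the windows of Nqo1 and Keap1. Among all 32851 windows of this length, 12.4% hold the letters. That share is per window, whereas the 5 genes are counted by a match in any of their windows. The 7 genes have 9 windows, 3 of them of Txnrd1. Hmox1, Gclc and Gsr were not matched in the promoter table. The stretches below show the matches. Each runs 5′ to 3′ along its gene's strand, and the capitals mark the match, which reads TGACNNNGC on the opposite strand in every stretch but that of Nfe2l2. A match describes letters and does not show binding.
Gclm: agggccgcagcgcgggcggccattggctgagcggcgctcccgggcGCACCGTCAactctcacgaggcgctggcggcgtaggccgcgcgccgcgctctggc
Prdx1: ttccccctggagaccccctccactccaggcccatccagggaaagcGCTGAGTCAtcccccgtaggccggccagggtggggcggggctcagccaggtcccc
Txnrd1: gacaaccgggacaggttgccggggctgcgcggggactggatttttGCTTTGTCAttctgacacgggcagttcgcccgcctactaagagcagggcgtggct
Srxn1: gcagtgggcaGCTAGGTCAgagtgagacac
Nfe2l2: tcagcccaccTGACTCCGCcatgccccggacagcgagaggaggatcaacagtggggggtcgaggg

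The Gclm stretch lies at chr3:122245378-122245477 (plus strand), with the match starting 134 bases before the start site. The Prdx1 stretch lies at chr4:116685421-116685520 (plus strand), and its match starts 133 bases before the start site and also holds TGACTCA, the letters of an AP-1 site, on the same strand as the element. The Txnrd1 stretch, at chr10:82859069-82859168 (plus strand), belongs to 1 of the gene's 3 windows, and the windows of the other two start sites hold no match. In Srxn1 (chr2:152105542-152105571, plus strand) the match lies 28 bases after the start site, inside an annotated exon. In Nfe2l2 (chr2:75704849-75704913, minus strand) it starts 240 bases before the start site. These are the stretches of the RefSeq reference, not of the mice studied.

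None of the 10 genes was called, but 7 had a positive statistic, and the 6 with the smallest p were all enzymes and all higher in Bub1 cKO. An unadjusted p under 0.05 was reached by 3 genes on the higher side (Gclm, Txnrd1 and Hmox1) and by 0 on the lower side. Over all genes of the authors' deposited table, 29 of 15982 genes, or 0.181%, are called, and 0.275% have an adjusted p under 0.1. An unadjusted p under 0.05 is held by 4.81% of its genes, 2.35% on the higher and 2.46% on the lower side in Bub1 cKO. The 10 genes are expressed above most of the table, with means from 7.34 to 273 TPM. Among the 5604 symbols within this range, 3.80% were on the higher and 3.73% on the lower side at this unadjusted p, and 50.7% had a positive statistic. The median deposited log2 change of the 10 genes was 0.18 and the median tested log2 change 0.28, beside 0.01 and 0.00 for the symbols in that range. Summed over the 8 enzymes, the authors' deposited values came to 877 TPM in Bub1 cKO and 718 TPM in Ctrl.

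**Figure D1:**
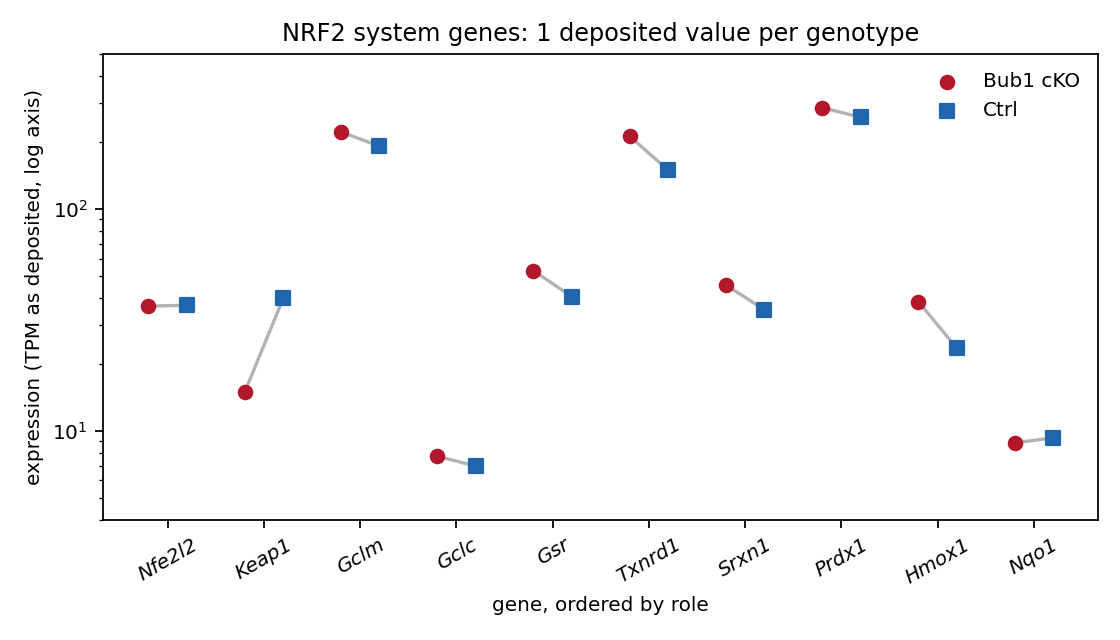
Deposited expression values (TPM, log axis) of the 10 genes, with Bub1 cKO as circles on the left and Ctrl as squares on the right of each pair, 1 value per genotype and no error. Txnrd1 (213 TPM in Bub1 cKO, 150 TPM in Ctrl) and Hmox1 (38.3 TPM in Bub1 cKO, 23.6 TPM in Ctrl) stand higher in Bub1 cKO, Nfe2l2 is level, and the deposited values of Keap1 (15.0 TPM in Bub1 cKO, 39.7 TPM in Ctrl) run the other way.

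The regulators were examined first. Nfe2l2 (chromosome 2, 75675513 to 75704641, minus strand, GRCm38) stood at 36.7 TPM in Bub1 cKO and 36.9 TPM in Ctrl in the authors' deposited table. Its tested log2 change was -0.00 (interval from -0.41 to 0.41), and the authors' deposited table gives an adjusted p of 1. A difference inside this interval could have been missed. The transcript of NRF2 does not report the amount of its protein.

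Keap1 (chromosome 9, 21229730 to 21239361, minus strand, GRCm38), which encodes the redox sensor that holds NRF2 down, gave 2 different pictures. The authors' deposited table has it at 15.0 TPM in Bub1 cKO and 39.7 TPM in Ctrl, a deposited log2 change of -1.35. In the authors' deposited table its statistic was only -0.06 (adjusted p = 1), and the tested log2 change was -0.02 with an interval from -0.64 to 0.60. The deposited log2 change therefore lies outside the interval of the tested one, 4.21 standard errors away. Of 5159 genes averaging 10 TPM or more, 97.7% had a smaller distance between these changes than Keap1. A distance above 1 was found in 189 of them, and 7 combined a deposited log2 change below -1 with a statistic within 0.1 of 0. GENCODE M21 lists 6 transcripts of Keap1, from 317 to 3614 bases long, and an antisense gene, Gm16754, that overlaps it over 3317 bases. How reads were divided among transcripts, and whether strand was used, is not stated, and their part in the distance was not tested. No direction is given for Keap1 here.

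**Figure D2:**
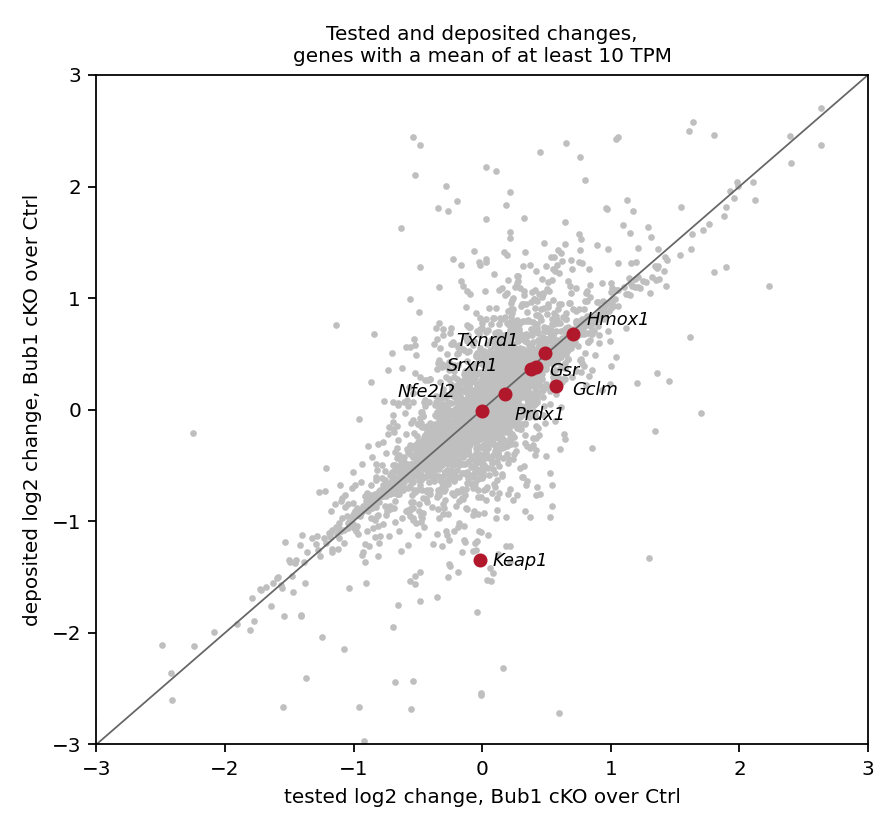
Deposited log2 change against tested log2 change (Bub1 cKO over Ctrl) for genes averaging 10 TPM or more in grey, with 8 of the 10 genes in red and the line of equality; 94 genes lie beyond the limits of 3 on either axis. Keap1 lies far below the line (-1.35 deposited, -0.02 tested) and Gclm somewhat below it (0.21 and 0.58), while the other 6 red genes lie on or near it.

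The glutathione branch held the gene with the smallest p of the 10. Gclm (chromosome 3, 122245557 to 122270732, plus strand, GRCm38), the modifier subunit of the ligase that makes the first step of glutathione synthesis, was at 223 TPM in Bub1 cKO and 192 TPM in Ctrl in the authors' deposited table. Its p of 0.00013 ranked 33 among all genes of the authors' deposited table, where the adjusted p was 0.062. With p-values rebuilt from the statistic and adjusted again over genes averaging 1 TPM or more, it was 0.0433. This call therefore depends on which genes are tested. The tested log2 change was 0.58 (interval from 0.28 to 0.87), larger than the deposited log2 change of 0.21 by 2.42 standard errors. Both are positive, so the sign does not depend on which is read, but the deposited one lies below the interval of the other. A processed pseudogene, Gm6061, lies within Gclm on the same strand, at 3.04 TPM in Bub1 cKO and 4.20 TPM in Ctrl in the authors' deposited table, and Gm17494 overlaps it on the other strand.

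Gclc (chromosome 9, 77754535 to 77794485, plus strand), the catalytic subunit of the same ligase, was at 7.72 TPM in Bub1 cKO and 6.97 TPM in Ctrl in the authors' deposited table. Its tested log2 change of 0.17 had an interval from -0.61 to 0.96, which includes the value found for Gclm, so the subunits were not shown to differ. Read as TPM, which is per transcript length, the level of Gclm was 28.9 times that of Gclc in Bub1 cKO and 27.6 times in Ctrl. Dividing by transcript length does not suit reads from the 3′ end, so such ratios between genes are approximate. Gsr (chromosome 8, 33652523 to 33698163, plus strand), the reductase that regenerates glutathione from its oxidised form, was at 52.9 TPM in Bub1 cKO and 40.3 TPM in Ctrl in the authors' deposited table. Its tested log2 change was 0.42 (interval from -0.03 to 0.87), and the authors' deposited table gives an unadjusted p of 0.067 (adjusted 0.985).

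In the thioredoxin branch all 3 genes had positive statistics. Txnrd1 (chromosome 10, 82833951 to 82897712, plus strand, GRCm38), the cytosolic selenoenzyme that keeps thioredoxin reduced, was at 213 TPM in Bub1 cKO and 150 TPM in Ctrl in the authors' deposited table. The deposited and tested log2 changes were 0.51 and 0.49, the interval ran from 0.10 to 0.88, and the authors' deposited table gives an unadjusted p of 0.013 (adjusted 0.762). Eid3, a gene of 1305 bases inside Txnrd1 on the same strand, was at 3.30 TPM in Bub1 cKO and 0.108 TPM in Ctrl in the authors' deposited table, and how reads were divided between both is not stated.

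Srxn1 (chromosome 2, 152105516 to 152111376, plus strand) encodes sulfiredoxin, which repairs peroxiredoxins that peroxide has overoxidised. It was at 45.6 TPM in Bub1 cKO and 35.2 TPM in Ctrl in the authors' deposited table, with a tested log2 change of 0.38 (interval from -0.00 to 0.76) and an unadjusted p of 0.051. Prdx1 (chromosome 4, 116685544 to 116700822, plus strand), an abundant peroxiredoxin that removes hydrogen peroxide, had the highest level of the 10 genes, at 287 TPM in Bub1 cKO and 260 TPM in Ctrl in the authors' deposited table. Its tested log2 change was 0.18, and the authors' deposited table gives it the smallest standard error of the 10, 0.093 (unadjusted p = 0.055). Nfe2l2 and Srxn1 share chromosome 2 with Bub1 (127801122 to 127831865), at distances of 52.1 and 24.3 Mb, and the part of variants linked to the targeted locus was not tested.

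Hmox1 and Nqo1, both widely used as NRF2 markers, had statistics of opposite sign, and the interval of Nqo1 was the widest of the 10. Hmox1 (chromosome 8, 75093621 to 75100589, plus strand), the inducible heme oxygenase that breaks heme down to biliverdin, iron and carbon monoxide, was at 38.3 TPM in Bub1 cKO and 23.6 TPM in Ctrl in the authors' deposited table. Its tested log2 change, 0.70 (interval from 0.12 to 1.28), was the largest of the 10, and the authors' deposited table gives an unadjusted p of 0.017 (adjusted 0.841). Nqo1 (chromosome 8, 107388225 to 107403206, minus strand), a quinone reductase, was at 8.86 TPM in Bub1 cKO and 9.34 TPM in Ctrl in the authors' deposited table. Its tested log2 change of -0.07 had an interval from -1.11 to 0.98, which includes the estimate for Hmox1.

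**Figure D3:**
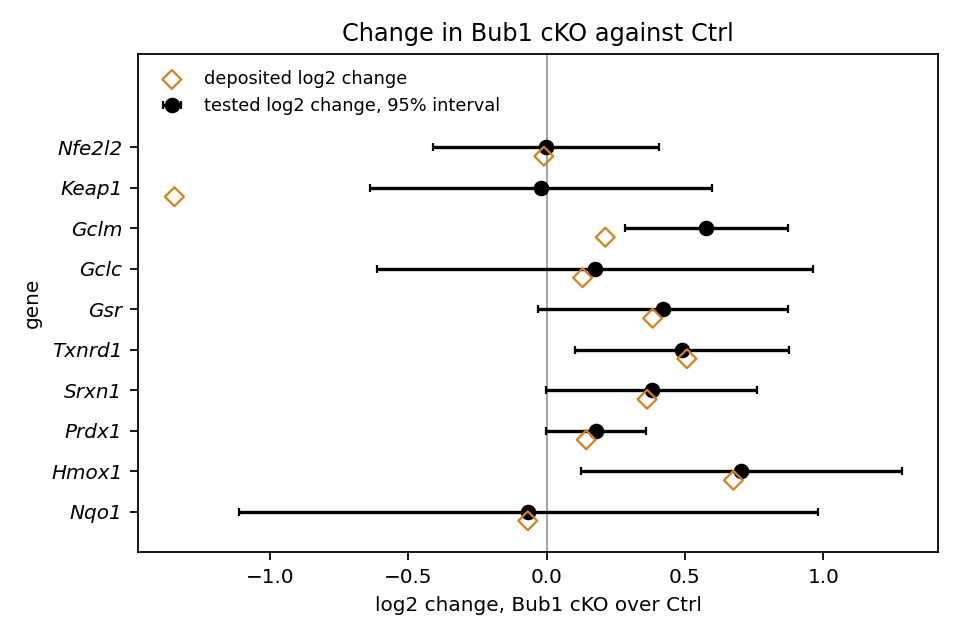
Log2 change in Bub1 cKO over Ctrl for each gene, with the tested change and its 95% interval as black points and bars and the deposited change as open diamonds. The intervals of Gclm, Txnrd1 and Hmox1 lie above 0, those of Srxn1, Prdx1 and Gsr just reach it, and those of Gclc and Nqo1 are the widest.

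In order of level in Ctrl, the authors' deposited table runs from Prdx1 (260 TPM) through Gclm (192 TPM) and Txnrd1 (150 TPM) to Gsr, Keap1, Nfe2l2 and Srxn1 between 40.3 and 35.2 TPM, then Hmox1, Nqo1 and Gclc. In Bub1 cKO the first 3 keep this order. With reads from the 3′ end and no stated unit, an order between genes is approximate. Whether neighbours in the order differ beyond their spread could not be assessed without values per library.

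Other genes of the pathway were taken from lists by role and read over genes averaging 1 TPM or more. Of the 10874 symbols there, 0.257% were called, 6.27% reached an unadjusted p under 0.05 and 49.6% had a positive statistic. Some genes stand in more than 1 list, such as Esd, Taldo1, Fth1 and Ftl1, so the counts of the lists are not independent. Of 14 tested partners, relatives and repressors of NRF2, 10 had a positive statistic, 0 were called and 0 reached an unadjusted p under 0.05. Bach1, the repressor that competes with NRF2 for the same elements and holds Hmox1 down, was at 5.45 TPM in Bub1 cKO and 7.68 TPM in Ctrl in the authors' deposited table (unadjusted p = 0.091). The small MAF partners Mafk and Maff were at 3.76 and 2.25 TPM in Bub1 cKO, against 1.99 and 1.14 TPM in Ctrl, in the authors' deposited table, with unadjusted p of 0.166 and 0.334. Cul3, the scaffold of the ligase that destroys NRF2, was at 64.1 TPM in Bub1 cKO and 44.1 TPM in Ctrl in the authors' deposited table (unadjusted p = 0.373).

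A longer list of genes known as NRF2 targets had mostly negative statistics. Of 36 tested, 10 statistics were positive and 26 negative, the median deposited log2 change was -0.17, 0 were called, and 1 in each direction reached an unadjusted p under 0.05. These were the 2 ferritin subunits. Fth1, the heavy chain, was at 3318 TPM in Bub1 cKO and 2744 TPM in Ctrl in the authors' deposited table (unadjusted p = 0.001, adjusted p = 0.286). Ftl1, the light chain, was at 7744 TPM in Bub1 cKO and 8845 TPM in Ctrl in the authors' deposited table (unadjusted p = 0.014, adjusted p = 0.777). Both have many near-identical copies in the genome, so their counts are uncertain. Cbr3, a carbonyl reductase, was at 16.1 and 8.09 TPM, and Taldo1, transaldolase of the pentose phosphate pathway, at 524 and 598 TPM, in Bub1 cKO and in Ctrl in the authors' deposited table (unadjusted p of 0.052 and 0.112).

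Of 18 further genes of glutathione synthesis and use, 7 statistics were positive, 11 were negative and 0 were called. Gpx1, the main cytosolic glutathione peroxidase, was at 428 TPM in Bub1 cKO and 605 TPM in Ctrl in the authors' deposited table (tested log2 change -0.48, unadjusted p = 0.001, adjusted p = 0.284), the opposite sign to Gclm and Gsr. It was the list's 1 gene at an unadjusted p under 0.05. Gss, which completes glutathione synthesis, was at 2.58 and 5.96 TPM, and Gpx4, the lipid peroxide reductase, at 193 and 253 TPM, in Bub1 cKO and in Ctrl in the authors' deposited table (unadjusted p of 0.110 and 0.143). Esd, an esterase that acts on S-formylglutathione, had a deposited log2 change of -0.02 and a tested one of 0.21, with an unadjusted p of 0.135 from the authors' deposited table.

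Of 18 further thioredoxin and peroxiredoxin genes, 10 had a positive statistic and 0 were called, while 2 on the higher and 0 on the lower side reached an unadjusted p under 0.05. The mitochondrial thioredoxin gene Txn2 was at 1376 TPM in Bub1 cKO and 1016 TPM in Ctrl in the authors' deposited table (unadjusted p = 0.042). Msrb2, a methionine sulfoxide reductase, was at 4.83 and 1.02 TPM (unadjusted p = 0.045), and Tmx1, a thioredoxin-related protein of the endoplasmic reticulum, at 31.3 and 23.8 TPM (unadjusted p = 0.052), in Bub1 cKO and in Ctrl in the authors' deposited table. Txnrd2, the mitochondrial relative of Txnrd1, was at 2.49 TPM in Bub1 cKO and 9.63 TPM in Ctrl in the authors' deposited table (unadjusted p = 0.098).

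**Figure D4:**
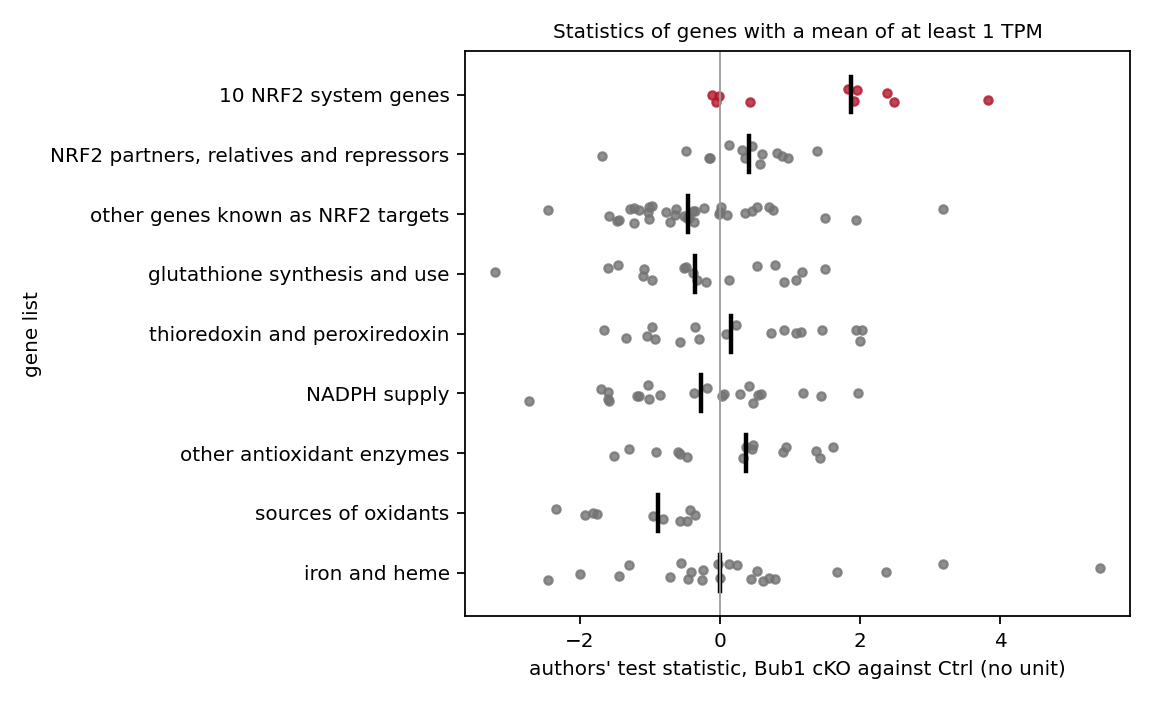
The authors' test statistic (Bub1 cKO against Ctrl, no unit) of every gene averaging 1 TPM or more in each list, with the list's median as a black bar. The 10 genes in red have a median of 1.87, against -0.47 for the other known NRF2 targets and -0.89 for the sources of oxidants, whose 10 genes all lie below 0.

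Facts of the whole series bear on these values. Bub1 was at 5.32 TPM in Bub1 cKO and 6.73 TPM in Ctrl (adjusted p = 0.985) in the authors' deposited table, and since the deleted exons are not given and 3′ reads can lie outside them, this does not check the labels. All 8 macrophage and all 10 osteoclast markers reached a mean of 1 TPM. The sum of the osteoclast markers was 2298 TPM in Bub1 cKO and 1987 TPM in Ctrl (8 of 10 with a positive statistic, 0 called). At an unadjusted p under 0.05, 5 of these 10 were on the higher and 0 on the lower side. The smallest p was that of Nfatc1 (0.00024, adjusted 0.094, in the authors' deposited table). The median statistic of the osteoclast markers was 2.03, beside 1.87 for the 10 NRF2 system genes, so a shift to the higher side was not particular to the latter. The sum of the macrophage markers was 1234 TPM in Bub1 cKO and 2621 TPM in Ctrl (2 of 8 positive, Lyz2 called as lower). Lyz2 sets the difference between these sums. Without it, an alternative chosen after seeing the data, the other 7 markers summed to 472 TPM in Bub1 cKO and 480 TPM in Ctrl. Most of that sum is Cd68, at 306 TPM in Bub1 cKO and 260 TPM in Ctrl, which with Mertk had a positive statistic. The others were on the lower side, among them Csf1r and Itgam (unadjusted p of 0.018 and 0.034 in the authors' deposited table). Erythroid markers summed to 358 TPM in Bub1 cKO and 19.9 TPM in Ctrl, with 5 of 5 tested positive, 2 called as higher (Hbb-bs and Hbb-bt, adjusted p of 0.00017 and 0.025 in the authors' deposited table), Alas2 and Slc4a1 at 0 in Ctrl and Epb42 at 0 in Bub1 cKO. Neutrophil markers summed to 241 TPM in Bub1 cKO and 102 TPM in Ctrl, with 6 of 6 statistics positive. Of these, 1 was called as higher (Cxcr2, adjusted p = 0.036 in the authors' deposited table), and Camp, Elane and Retnlg were at 0 in Ctrl. The deposited values of Ltf ran the other way, at 6.74 TPM in Bub1 cKO and 12.3 TPM in Ctrl, with a statistic of 0.22. The part of all these cell types in the values of the 10 genes was not tested. Stromal markers summed to 4.66 and 3.61 TPM, and B and T cell markers to 0.495 and 0.577 TPM, in Bub1 cKO and in Ctrl.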

How the data were processed

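RNA of 6 libraries (3 Bub1 cKO, 3 Ctrl) was made into QuantSeq 3′ libraries, per the labels' protocols. The authors' comparison table names RaNA-seq, per the file headers; aligner, build, annotation and test: not given in the sources used here. Expression was deposited without a unit and taken as TPM, because the genotypes' columns sum to 999954 and 999891; CPM would sum alike. The authors' log2 change could be rebuilt for 15982 genes, within 0.002, by adding 1 to both values. Their statistic and standard error are scores of a test they do not name, and for 15974 genes the deposited p-value follows from the statistic by a 2-sided normal tail (within 0.001).

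The design assumed that values per library might be given; with a comparison table, the authors' adjusted p was used. Members and lists were chosen with earlier results of these data known. The rule for named genes took Bub1, all 10 members, and up to 4 genes per list with the smallest p, plus called ones, with a mean of at least 1 TPM. Not all of these appear in the text, and some other genes are mentioned beside them. Alternatives were other pseudocounts, centring, filters and Benjamini-Hochberg adjustment again over fewer genes (statsmodels 0.14.6, Python 3.11.15), a step tested on simulated data. For nearly all genes the p-values adjusted again were rebuilt from the statistic by the normal tail, since the deposited ones are rounded. Positions come from GENCODE M21 (GRCm38), in which 14622 identifiers, all 10 members included, match with their version.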

Additional observations from a re-analysis of the deposited data

How the results depend on the processing

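The count of called genes among the 10, which was 0, became 1 (Gclm) when the p-values of the authors' deposited table were adjusted again over genes averaging 1 TPM or more (adjusted p = 0.0433), 1 (Gclm) over genes above the median mean (adjusted p = 0.0362), 1 at an adjusted p under 0.1 and 3 at an unadjusted p under 0.05. The first pair tests fewer genes. The median log2 change of 0.18 became 0.28 with the tested change and 0.29 over those averaging 10 TPM or more. With pseudocounts of 0.1 and 5 and with centring it moved by less than 0.05. The count of 7 positive statistics was also 7 by the sign of the deposited log2 change and 6 among genes of at least 10 TPM. In 40 recomputed log2 changes of the 10 genes the sign was the same in 40. In 192 of 48 other genes picked by the rule for named genes, not all of which appear above, it turned in 1. That was Esd (0.21 with the tested change), and the cause was not tested. Pseudocounts cannot turn a sign, and centring shifted each change by 0.008, less than the smallest of them. Only the tested change could therefore turn a sign. For Keap1 it kept the sign but went from -1.35 to -0.02. No paired analysis was possible because values per library were not used here, and leaving out single libraries was not run for the same reason. Depth is unknown, and the standard errors of Nqo1 (0.534) and Gclc (0.402) limit what could be seen in these genes.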

Other observations

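Genes that produce oxidants lay on the other side of 0 from 7 of the 8 enzymes described above, but antioxidant genes at large did not share 1 side. The other known NRF2 targets (10 positive, 26 negative) and the glutathione genes (7 and 11) were mostly negative. The thioredoxin genes (10 and 8) and the other antioxidant enzymes (9 and 6) were not. Of 10 tested sources of oxidants, 0 had a positive statistic, beside 49.6% of all symbols averaging 1 TPM or more. The authors' test called 0 of them, and at an unadjusted p under 0.05 there was 1. Ncf1, the p47phox organiser of the phagocyte NADPH oxidase, was at 32.6 TPM in Bub1 cKO and 46.6 TPM in Ctrl in the authors' deposited table (tested log2 change -0.51, unadjusted p = 0.019, adjusted p = 0.849). Rac1, a GTPase of the oxidase, was at 64.9 TPM in Bub1 cKO and 81.9 TPM in Ctrl in the authors' deposited table (unadjusted p = 0.054). The oxidase genes Nox1 and Cybb were at 4.06 and 26.4 TPM in Bub1 cKO, against 7.64 and 27.5 TPM in Ctrl, in the authors' deposited table (unadjusted p of 0.070 and 0.078). The macrophage markers other than Lyz2 summed to 472 TPM in Bub1 cKO and 480 TPM in Ctrl, though only Cd68 and Mertk had positive statistics.

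Genes of iron and heme held the 1 called gene of the redox lists. Tfrc, the transferrin receptor, was at 56.5 TPM in Bub1 cKO and 25.7 TPM in Ctrl in the authors' deposited table (tested log2 change 1.16, adjusted p = 0.00018). Flvcr1, a heme exporter, was at 15.8 TPM in Bub1 cKO and 5.75 TPM in Ctrl in the authors' deposited table (unadjusted p = 0.018). Over 23 tested genes of this list 12 statistics were positive and 11 negative. Globin and other erythroid transcripts were higher in the same comparison (358 TPM in Bub1 cKO and 19.9 TPM in Ctrl in sum), and their part was not tested. Among 22 genes of NADPH supply 10 had a positive statistic and 0 were called. Idh1, the cytosolic isocitrate dehydrogenase, was at 14.3 TPM in Bub1 cKO and 27.0 TPM in Ctrl (unadjusted p = 0.006), and Mthfd2, a mitochondrial folate enzyme, at 41.8 and 33.1 TPM (unadjusted p = 0.049), in the authors' deposited table. The kinases of NAD, Nadk2 and Nadk, were at 2.62 and 32.0 TPM in Bub1 cKO, against 9.34 and 39.5 TPM in Ctrl, in the authors' deposited table (unadjusted p of 0.088 and 0.108). Among 15 other antioxidant enzymes 9 had a positive statistic, 0 were called and 0 reached an unadjusted p under 0.05.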
